A study of Mus musculus with 8 samples.

Results

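A set of 9 genes that mark excitatory neurons were followed through 8 libraries of nuclear RNA from sorted cortical GABAergic (inhibitory) neurons, to describe how much RNA of the excitatory lineage such a sort held. The genes were chosen by symbol: Slc17a7, Slc17a6, Neurod1, Neurod2, Neurod6, Tbr1, Emx1, Fezf2 and Cux2, which are 9 of the 55341 gene symbols in the count files. All 9 symbols were present, 8 had at least 1 count, and the same 8 passed the filter on low counts. Each library came from the frozen cortex of 1 mouse; the labels call the PTU mice juvenile and give no other age. A Cre/loxP reporter confined a fluorescent nuclear protein to GABAergic neurons, whose nuclei were then collected with a cell sorter. The Cre line is not named in the labels. Mice 9 to 12 (PTU, n = 4) were hypothyroid because their mothers had received propylthiouracil, which blocks thyroid hormone synthesis, during gestation. Mice 13 to 16 (PTU+TH, n = 4) were made hypothyroid in the same way and were injected intraperitoneally with thyroid hormone 24 h before the brain was collected. Every library therefore came from a hypothyroid background, and no euthyroid group was analysed here.

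Cortical neurons fall into glutamatergic excitatory cells, which arise from the dorsal telencephalon and load synaptic vesicles with glutamate, and GABAergic cells, which arise from the ventral telencephalon and make GABA with the enzymes encoded by Gad1 and Gad2. The 2 lineages use separate transcription factors, so RNA of the first lineage in a sort of the second can be read from a small set of genes. Such genes differ in how strictly they separate the lineages: Cux2 marks upper-layer excitatory neurons but is also expressed in part of the cortical interneurons. No library of unsorted cortex or of excitatory nuclei was analysed here, so the levels are not converted into a share of nuclei.

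The labelled cell type was checked first. Of 10 GABAergic genes, 8 were detected in each library, and Dlx1 and Dlx6 were listed at 0 throughout. Their summed level lay between 2503 and 2981 CPM (counts per 1000000 counts of the library, whose total was adjusted by edgeR's TMM factor) in PTU, and between 2356 and 2603 CPM after the hormone. Gad1 averaged 446 CPM over the 8 libraries. Library totals ranged from 21762810 to 29084071 counts, and their difference between the groups was smaller than the spread within them (two-sided exact permutation test, p = 1, where 0.0286 is the smallest p that 4 against 4 allows). The labels name separate mice and give no litter or batch.

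Slc17a7, Neurod2 and Neurod6 are shown with the 250 bases before their annotated start, because Slc17a7 sets the order of the libraries to which the other genes are compared, and Neurod2 and Neurod6 come nearest to it among the members. The sequences are from RefSeq (build GRCm38.p6). Slc17a7 is at chr7:45163671-45163920 on the plus strand, Neurod2 at chr11:98329646-98329895 on the minus strand and Neurod6 at chr6:55681264-55681513 on the minus strand. Capitals mark the E-box CAGATG, or its reverse complement CATCTG, a sequence that NEUROD proteins can bind, and CAGCTG was searched as well.
Slc17a7: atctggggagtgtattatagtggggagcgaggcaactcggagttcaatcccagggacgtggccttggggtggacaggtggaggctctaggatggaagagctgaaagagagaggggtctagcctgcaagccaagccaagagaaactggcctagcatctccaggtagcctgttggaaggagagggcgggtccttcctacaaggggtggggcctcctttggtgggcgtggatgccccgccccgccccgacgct
Neurod2: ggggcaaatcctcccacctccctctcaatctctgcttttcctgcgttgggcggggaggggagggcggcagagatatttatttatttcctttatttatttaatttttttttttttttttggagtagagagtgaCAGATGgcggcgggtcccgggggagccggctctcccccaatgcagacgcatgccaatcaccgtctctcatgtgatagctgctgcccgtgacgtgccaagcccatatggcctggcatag
Neurod6: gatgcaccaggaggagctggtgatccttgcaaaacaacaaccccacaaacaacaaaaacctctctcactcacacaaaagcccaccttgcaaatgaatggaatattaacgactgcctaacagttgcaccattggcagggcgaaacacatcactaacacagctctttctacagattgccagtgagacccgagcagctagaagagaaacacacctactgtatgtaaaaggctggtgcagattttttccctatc
Among these windows that of Neurod2 held 1 CAGATG, and none of these 3 held CAGCTG. Over 32851 windows of the same length, 14.4% held CAGATG on either strand and 13.0% held CAGCTG. A match of letters is a description of these windows and not a binding site.

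The vesicular glutamate transporters come first. Slc17a7 encodes VGLUT1, the main vesicular glutamate transporter of cortical excitatory neurons (chromosome 7, 45163949 to 45176142). Its level was 50.7, 51.4, 22.8 and 15.8 CPM in PTU mice 9, 10, 11 and 12. In PTU+TH mice 13, 14, 15 and 16 it was 44.0, 23.9, 57.9 and 28.0 CPM. Mice 9, 10, 13 and 15 were thus high and mice 11, 12, 14 and 16 low, with 2 mice of each group on either side. The groups overlapped and the difference was not called (35.2 ± 18.6 against 38.5 ± 15.6 CPM, SD over 4 mice each; log2 fold change 0.12, 95% interval -0.88 to 1.12, edgeR quasi-likelihood adjusted p = 0.963). Between the lowest and the highest library the level differed 3.66-fold. Its within-group SD of 0.73 on the log2 scale was at or above that of 99.8% of the 4840 tested genes with a mean level within a factor of 2 of its own.

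Slc17a6 encodes VGLUT2, which in the adult forebrain is best known from the thalamus (chromosome 7, 51622006 to 51671119). It stood at 3.68, 1.09, 1.63 and 0.92 CPM in the PTU libraries, in order of mouse number, and at 1.60, 1.44, 3.23 and 1.52 CPM in the PTU+TH libraries. Only mice 9 and 15 exceeded 2 CPM for this gene, and mouse 10, which was among the highest for Slc17a7, was among the lowest for Slc17a6. Behind these values stand 21 to 101 counts per library. The log2 fold change was 0.08 (95% interval -0.88 to 1.03, edgeR adjusted p = 0.978).

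The NEUROD family of basic helix-loop-helix factors drives the differentiation of excitatory neurons. Neurod2 (chromosome 11, 98325415 to 98329648) was at 5.32, 5.46, 2.33 and 2.01 CPM in the 4 PTU mice and at 4.60, 1.62, 6.68 and 2.81 CPM in the PTU+TH mice. The 4 highest libraries were again those of mice 9, 10, 13 and 15. Neurod6 (chromosome 6, 55677822 to 55681263), which is used as a marker of postmitotic pyramidal neurons, was at 7.61, 5.91, 2.92 and 2.23 CPM in PTU. In PTU+TH it was at 4.55, 3.51, 6.54 and 4.71 CPM, so mouse 16 lay just above mouse 13. Neither gene was called (log2 fold changes 0.04 and 0.04, edgeR adjusted p = 0.991 and 0.988).

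Neurod1 was listed at 0 in all 8 libraries, which by itself would allow up to 0.103 to 0.148 CPM per library (3 counts, counting error only). Its whole body (chromosome 2, 79452521 to 79456751) lies inside that of Cerkl on the same strand, and the 2 annotated starts are 34 bases apart. All 1265 protein-coding genes with a unique symbol that lie wholly inside another gene were at 0 in every library, against 21.5% of the 11727 that share no base with another gene. The zero of Neurod1 is therefore not read as absence of its RNA. Dlx1 and Dlx6 of the GABAergic list are also inside other genes.

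**Figure D1:**
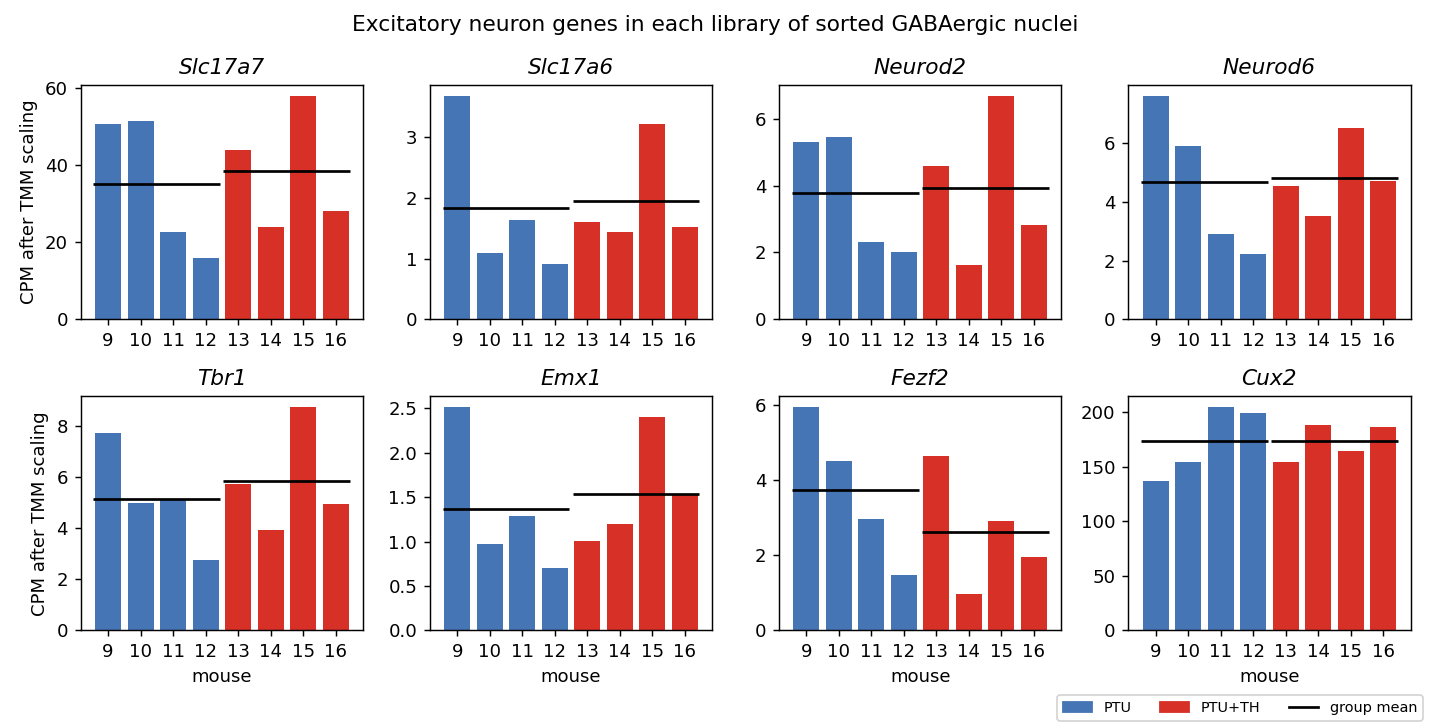
Level of 8 excitatory neuron genes in each library, in CPM after TMM scaling on axes that start at 0. Bars are single mice, blue for PTU and red for PTU+TH, and black lines are the means of the 4 libraries of a group. Mice 9 and 15 are high and mouse 12 is low in most panels, whereas Cux2 is lowest in mouse 9.

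The remaining members are transcription factors of cortical layers and regions. Tbr1 (chromosome 2, 61802930 to 61814114) acts in early-born deep-layer neurons. It was at 7.72, 4.97, 5.15 and 2.76 CPM in the 4 PTU mice and at 5.73, 3.92, 8.72 and 4.95 CPM in the PTU+TH mice. Emx1 (chromosome 6, 85187438 to 85204462) marks the dorsal telencephalic lineage. It was at 2.51, 0.98, 1.29 and 0.70 CPM in the 4 PTU mice and at 1.01, 1.20, 2.41 and 1.52 CPM in the PTU+TH mice. Both genes were highest in mice 9 and 15 and lowest in mouse 12. Neither was called (log2 fold changes 0.17 and 0.15, edgeR adjusted p = 0.908 and 0.949).

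Fezf2 specifies subcerebral projection neurons of layer 5 (chromosome 14, 12342094 to 12348189). It stood at 5.94, 4.52, 2.97 and 1.49 CPM in the 4 PTU mice and at 4.64, 0.96, 2.91 and 1.95 CPM in the PTU+TH mice. Mouse 14, with 28 counts, was lowest and mouse 9, with 163 counts, highest. Its log2 fold change of -0.52 was the furthest from 0 among the members, with a 95% interval from -1.57 to 0.52 (edgeR adjusted p = 0.751). The groups overlapped, and mouse 15 did not stand out for this gene.

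Cux2 behaved differently from the other 7 detected members (chromosome 5, 121856366 to 122050102). Its level was 137, 155, 205 and 199.8 CPM in the PTU mice and 154.5, 188, 165 and 187 CPM in the PTU+TH mice. The 4 lowest libraries were those of mice 9, 10, 13 and 15, which were the 4 highest for Slc17a7. Such a reversed set of 4 was found in 3.11% of all tested genes. The range was also narrow, with a ratio of 1.49 between the highest and lowest library, against 3.17 to 6.17 for the other 7. The log2 fold change was -0.004 with a 95% interval from -0.29 to 0.28 (edgeR adjusted p = 0.996).

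Levels of different genes were compared per length of the gene body. Slc17a7 was highest with 3.02 ± 1.31 CPM per kb, followed by Neurod6 with 1.38 ± 0.54, Neurod2 with 0.91 ± 0.45 and Cux2 with 0.90 ± 0.13 (SD, n = 8 libraries). Next came Fezf2 with 0.52 ± 0.28 and Tbr1 with 0.49 ± 0.17, then Emx1 with 0.0853 ± 0.0392 and Slc17a6 with 0.0385 ± 0.0204 CPM per kb (SD, n = 8). The means ± SD of neighbours in this order overlapped at each step except that from Tbr1 to Emx1, but all genes share the same libraries. Within each library Slc17a7 was above Neurod6, Neurod6 above Neurod2, Tbr1 above Emx1 and Emx1 above Slc17a6. The order among Neurod2, Cux2, Fezf2 and Tbr1 differed between libraries. The high CPM of Cux2 thus went with a body of 193737 bases, against 4234 for Neurod2. Per kb of exon the order changed, with Cux2 first at 17.2 and Slc17a7 second at 6.83 CPM per kb. The GABAergic genes Gad1 and Gad2 stood at 9.12 and 6.17 CPM per kb of gene body. Slc32a1, which encodes the vesicular GABA transporter, was at 3.20 CPM per kb of its whole body, close to Slc17a7 on this measure. The ratio of Slc17a7 to Slc32a1 per kb of gene body was 0.996, 1.72, 0.650 and 0.718 in PTU and 1.38, 0.542, 1.12 and 0.607 in PTU+TH. Per length of the whole body, the glutamate transporter gene was thus above the GABA transporter gene in mice 10, 13 and 15. It was about level with it in mouse 9 and below it in mice 11, 12, 14 and 16. Of the gene bodies, 99.5% for Slc17a7 but 81.7% for Slc32a1 are free of other genes. Per kb of free body the ratio would be lower in each library, so the order where the ratio is near 1 rests on the length used. Per kb of exon Slc17a7 was at 6.83 and Slc32a1 at 5.69 CPM per kb, and their ratio in mouse 9 was 1.26. That ratio was above 1 in mice 9, 10, 13 and 15 and below 1 in the other 4.

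**Figure D2:**
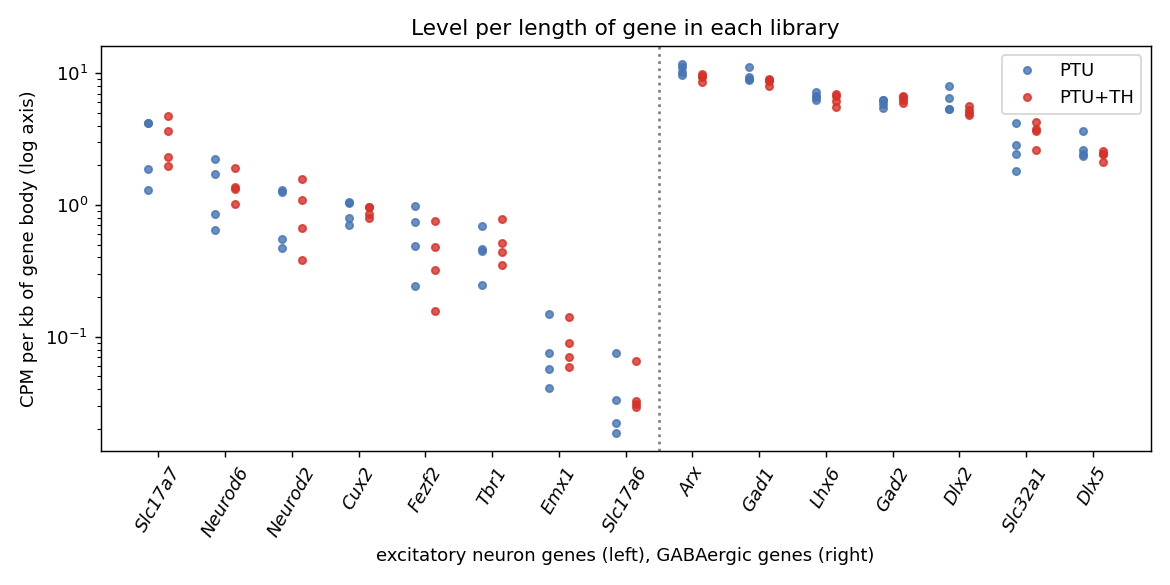
Level per kb of gene body on a log axis, with 1 point per library (blue PTU, red PTU+TH). The 8 detected excitatory neuron genes are on the left and 7 GABAergic genes on the right, each ordered by mean. Slc17a7, at 3.02 CPM per kb on average, is near Slc32a1 (3.20), and Slc17a6 is the lowest of the genes shown. Lengths are of the whole body, of which 81.7% is free of other genes for Slc32a1 and 99.5% for Slc17a7.

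The comparison of PTU+TH with PTU asked whether the excitatory signal differed between the hormone groups. None of the 8 tested members was called, against 2.12% of all 17355 tested genes (edgeR quasi-likelihood test, Benjamini-Hochberg adjusted p under 0.05). At an unadjusted p under 0.05 there were 0 of 8, against 12.8% of all genes, and DESeq2 and limma voom also called 0 (4.48% and 2.05% of the genes they tested). In 0 of the 8 members did all 4 libraries of a group lie above the other 4, against 8.71% of all genes. Of the 8 log2 fold changes 6 were above 0 and 2 below, with a median of 0.06 beside -0.01 over all tested genes. The intervals of Slc17a7, Slc17a6, Neurod2, Emx1 and Fezf2 reached past a factor of 2 in 1 direction, so a change of that size is not excluded for these 5 genes. In RNA from pools of nuclei, fewer nuclei of a type and less RNA per nucleus cannot be told apart.

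Summed over the members, the level was 229.8 ± 9.98 CPM for PTU against 233 ± 14.3 CPM for PTU+TH (SD, n = 4 each), most of it from Cux2. The difference of 2.89 CPM was smaller than either SD, and it was -3.70 CPM without mouse 15, 7.71 CPM without mouse 11 and 0.00909 CPM with library totals as the only scaling. Without Cux2, which was left out after its values were seen, the sums were 83.5, 74.3, 39.0 and 25.9 CPM in mice 9 to 12 and 66.2, 36.6, 88.4 and 45.4 CPM in mice 13 to 16. Per 100 CPM of the GABAergic list this came to 1.02 at the lowest, in mouse 12, and 3.66 at the highest, in mouse 15. The means of this ratio were 2.08 ± 0.96 in PTU and 2.42 ± 1.02 in PTU+TH (SD, n = 4 each), a difference smaller than either SD.

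Of the 7 detected members other than Cux2, 4 were highest in mouse 9 and 3 in mouse 15, while 5 were lowest in mouse 12 and 2 in mouse 14. Among those 7, Neurod2 alone had the same 4 highest libraries as Slc17a7, a pattern found in 3.61% of all tested genes. Slc17a6 and Emx1 separated mice 9 and 15 from the other 6.

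**Figure D3:**
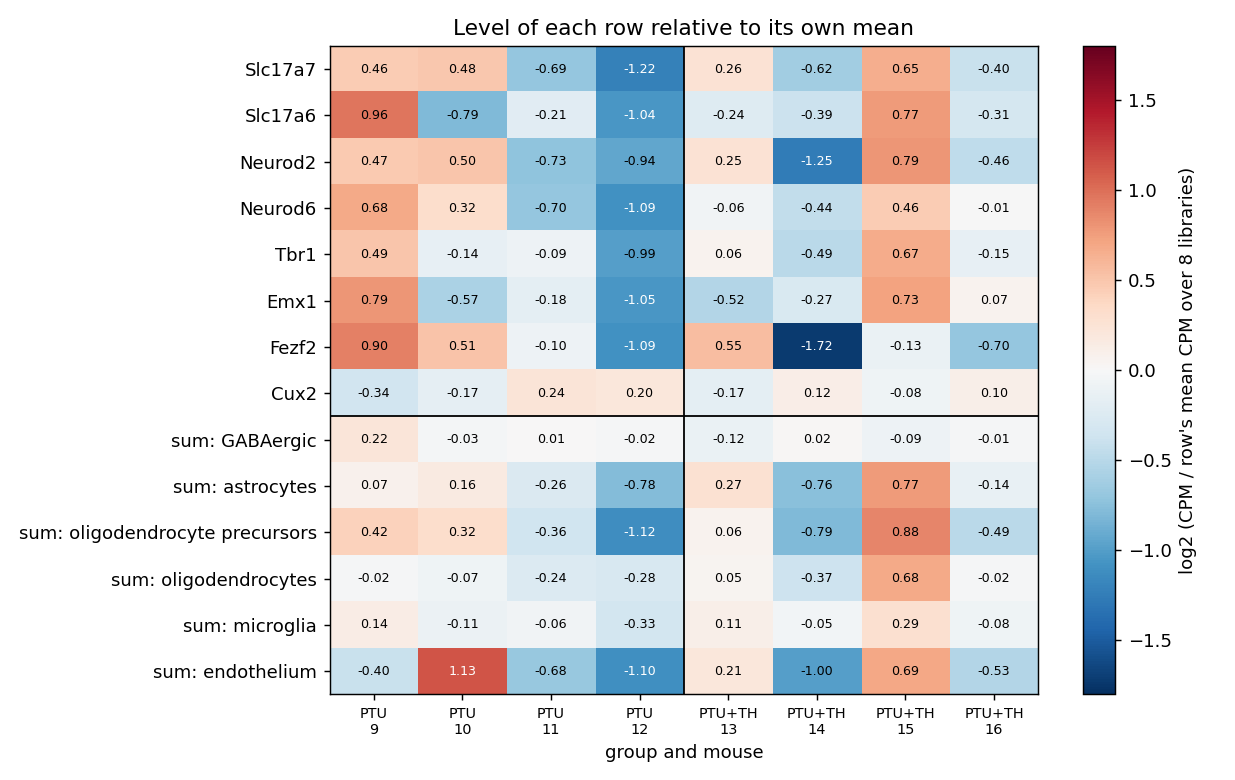
Level of each member and of the summed marker lists relative to the row's own mean over the 8 libraries, as log2 ratios (red above, blue below the mean). Columns are mice 9 to 16 with the group above the number. The sums for astrocytes and oligodendrocyte precursors rise and fall over the mice much as Slc17a7 does, Cux2 runs the other way, and the GABAergic sum varies least of the 6 sums.

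Markers of non-neuronal cells were summed in the same libraries. The 6 astrocyte genes, of which Gfap was at 0, summed to 125.0 to 241 CPM in the PTU mice and 127 to 366 CPM in the PTU+TH mice. The 5 genes of oligodendrocyte precursors, of which C1ql1 was at 0, summed to 8.27 to 24.0 CPM and 10.4 to 33.0 CPM. The 6 endothelial genes summed to 33.6 to 158 CPM and 36.2 to 117 CPM. In each of these 3 sums the 4 highest libraries were those of mice 9, 10, 13 and 15, as for Slc17a7. Of the single tested genes, 2 of 5 for astrocytes, 2 of 4 for the precursors and 3 of 6 for the endothelium had that set of 4. The 6 oligodendrocyte genes summed to 89.4 to 107 CPM in the PTU mice and 84.3 to 174 CPM in the PTU+TH mice. The 6 microglial genes, of which P2ry12 was at 0, summed to 49.9 to 69.4 CPM and 59.5 to 77.1 CPM. Both of these sums were highest in mouse 15. Gfap, C1ql1 and P2ry12 each lie inside another gene. Of the 25 tested genes in these 5 lists 0 were called between the groups by edgeR, DESeq2 or limma voom. An unadjusted edgeR p under 0.05 was found for 2, Mobp and C1qa, against 12.8% of all tested genes. Fold changes were above 0 for 5 of 5 microglial and 4 of 5 oligodendrocyte genes (median log2 0.63 and 0.68, beside -0.01 over all genes). The medians were 0.15 for astrocytes, 0.09 for the precursors and -0.05 for the endothelium. The part of these cell types in the levels of the members was not tested.

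The astrocyte genes with the highest means were Slc1a2 (a glutamate transporter) at 146 CPM and Slc1a3 at 41.5 CPM. Those of the precursors were Cspg4 at 6.07 CPM and Olig1 at 4.83 CPM, and those of the endothelium were Cldn5, a tight junction gene, at 24.8 CPM and Tek at 14.4 CPM. Mbp of the oligodendrocyte list averaged 65.8 CPM and Csf1r of the microglial list 8.30 CPM.

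The genes whose profile was most like that of Slc17a7 were sought among 10545 genes that averaged 5 CPM or more. The measure was Pearson's r of log2 CPM over the 8 libraries, given as a description. The 10 most alike were Apoe, Mlc1, Trib2, Rflnb, Cmtm6, Gja1, Crip2, Shisa5, Tmed3 and Vipr1, with r from 0.98 to 0.96 and Spearman's rho from 0.81 to 1. All 10 had their 4 highest libraries in mice 9, 10, 13 and 15. The values of Slc17a7 fall into 4 high and 4 low libraries, and r within either set was not computed. An r over 0.9 was reached by 67 genes (0.635%), and the median r was -0.06. Apoe, the apolipoprotein made in quantity by astrocytes and microglia, ranged from 36.9 to 84.9 CPM in the PTU mice and from 47.4 to 103 CPM in the PTU+TH mice. Mlc1, an astrocyte membrane protein gene, ranged from 2.14 to 9.51 and from 3.85 to 13.4 CPM. None of the 10 was called (edgeR adjusted p from 0.831 to 0.978).

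Other excitatory neuron genes were taken from 3 lists with 35 genes, of which 30 were tested. Called genes numbered 2 higher and 0 lower in PTU+TH (1.49% and 0.634% of all tested genes were called in these directions). The median log2 fold change was 0.001, beside -0.01 over all genes. The 4 highest libraries were those of Slc17a7 for 11 of the 30 genes (36.7%), against 3.61% of all tested genes. The count was 4 of 6 among other regulators, 4 of 13 among layer genes and 3 of 11 among effector genes, and 0 of 8 among GABAergic genes. Non-neuronal genes shared that set too, with 2 of 5 for astrocytes, 2 of 4 for oligodendrocyte precursors and 3 of 6 for endothelium. It was 1 of 5 for oligodendrocytes and 1 of 5 for microglia.

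Among the other regulators, Zbtb18, Lhx2 and Nfix had their 4 highest libraries in mice 9, 10, 13 and 15. Slc17a8, which encodes VGLUT3 and is known from a class of interneurons, did not, with 3.44 CPM in mouse 14 and 7.87 CPM in mouse 11 at its extremes. Neurog2, Neurod4, Eomes and Emx2 did not pass the filter and averaged 0.076, 0.152, 0.011 and 0.442 CPM. Neurog2 and Eomes are best known from progenitors of the embryonic cortex.

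Layer genes were divided. Crym, Ccn2, Foxp2 and Nxph4 had the 4 highest libraries of Slc17a7, with Crym at 7.50, 6.74, 2.47 and 2.27 CPM in the PTU mice and 5.06, 3.16, 5.86 and 3.47 CPM in the PTU+TH mice. Rasgrf2, the most abundant layer gene at 328 CPM, followed Cux2 instead, with its 4 lowest libraries in mice 9, 10, 13 and 15. Cux1, Bcl11b and Tle4 averaged 111, 75.4 and 33.4 CPM and varied 1.60-, 1.28- and 1.39-fold between the lowest and highest library, far less than Slc17a7. Cux1 and Bcl11b are also known from interneurons. Rorb, a layer 4 gene, had the largest ratio of highest to lowest library among the 13, with 5.95 CPM in mouse 12 and 41.3 CPM in mouse 15. Of the 13 layer genes 0 were called by edgeR, DESeq2 or limma voom, and 1, Rspo1, had an unadjusted edgeR p under 0.05 (log2 fold change -0.71, edgeR adjusted p = 0.272).

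The 2 called genes were effector genes. Slc30a3 encodes the zinc transporter of glutamatergic synaptic vesicles. It was at 42.4, 36.8, 38.2 and 32.9 CPM in the 4 PTU mice and at 74.8, 73.6, 70.7 and 72.4 CPM in the PTU+TH mice. All 4 PTU+TH libraries lay above all 4 PTU libraries, and the gene rose (log2 fold change 0.95, SE 0.093, edgeR adjusted p = 0.000131). Chn1, which encodes a Rac GTPase-activating protein, was at 76.1, 75.0, 80.5 and 81.0 CPM in the 4 PTU mice and at 112, 110.3, 121 and 126 CPM in the PTU+TH mice. It rose as well (log2 fold change 0.58, SE 0.082, edgeR adjusted p = 0.00209). Neither gene followed the order of Slc17a7: mouse 14, low for Slc17a7, was at 73.6 CPM for Slc30a3 and at 110.3 CPM for Chn1. Of the gene bodies, 80.7% for Slc30a3 and 95.5% for Chn1 are free of other genes. Both were called in all 14 other fits run for single genes.

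The other tested effector genes were not called with the group as the only term. Sv2b, a synaptic vesicle protein gene enriched in excitatory neurons, was at 42.1, 37.0, 21.0 and 11.1 CPM in the 4 PTU mice. In the PTU+TH mice it was at 30.4, 13.0, 35.1 and 17.3 CPM. Its 4 highest libraries were those of Slc17a7, in a different order among them. Baiap2 and Itpka shared that set of 4. Arpp21 and Camk2a were the most abundant at 239 and 220.1 CPM, with log2 fold changes 0.45 and -0.09 (adjusted p by edgeR 0.552 and 0.839). Camk2a, the kinase subunit used as a marker of excitatory neurons, varied 1.39-fold between libraries. Nptx1 had a log2 fold change of 0.82 (edgeR adjusted p = 0.201), and was called when mouse 9 was left out or Slc17a7 was a covariate. Sla lies inside the gene Tg and was listed at 0.

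**Figure D4:**
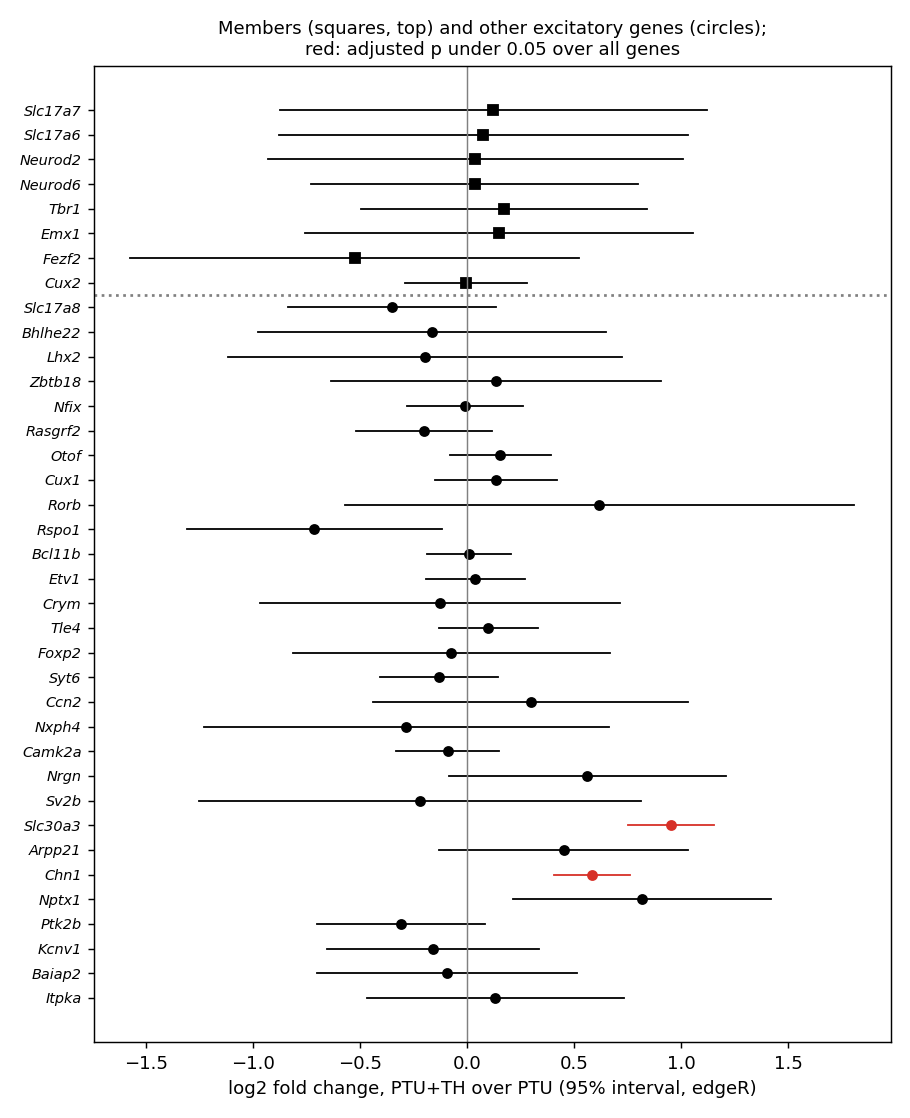
Log2 fold change of PTU+TH over PTU with 95% intervals from edgeR for the 8 detected members (squares, above the dotted line) and 29 other excitatory neuron genes (circles). Red marks genes called over all genes tested. All 8 member intervals include 0, and Slc30a3 and Chn1 are the red points at 0.95 and 0.58.

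The level of Slc17a7 was also used as a covariate of the whole comparison, a choice made after its values were seen. With the group as the only term 368 genes were called, 258 higher and 110 lower in PTU+TH. With log2 CPM of Slc17a7 added, 643 were called, 433 of them higher, and these included all 368. With the summed level of the 9 members as the covariate 327 were called, of which 311 were among the 368. Slc30a3 and Chn1 were called with either covariate.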

How the data were processed

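Nuclear RNA was sequenced from sorted cortical GABAergic nuclei of 8 mice, with groups taken from the sample titles. Each file, as deposited by the authors, lists a raw count for every gene symbol and has no header. Libraries were made with Smart-seq v4 and Nextera XT and sequenced single end, per the labels' protocols. Bowtie2 2.5.3 and the builds mm10 and GRCm38 are named per the submitters' processing notes. The counting program, annotation, use of strand and treatment of introns are not given in the sources used here. All 55341 symbols matched GENCODE M21 (GRCm38), from which positions and lengths were taken. The listed symbol Ctgf was matched to Ccn2 through RefSeq synonyms.

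Counts were filtered with filterByExpr, scaled by TMM and tested with the robust quasi-likelihood test of edgeR 4.0.16 in R 4.3.3 with the group as the only term, adjusted by Benjamini-Hochberg over 17355 genes and called under 0.05. Intervals are 95% and use the test's standard error. CPM was computed from the deposited counts. Log2 CPM for within-group SD and r used a prior count of 2. Alternatives were other scalings, DESeq2 1.42.0, limma 3.58.1 voom, no filter, leaving out each library, and covariates. The fits were tested on simulated data. Totals were compared by an exact permutation test.

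The members and gene lists were chosen with earlier results of these data known. Named genes were the members, called genes and the most abundant genes of each list, and the 10 genes most alike to Slc17a7. Other genes named were picked after their values were seen. The labels name single mice and give no sex, litter or batch. Values of some single list genes are not reported here; list sums and counts include them.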

Additional observations from a re-analysis of the deposited data

Results flagged for a closer look

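In 28 sets of 4 values, 2 had 1 mouse far apart from the remaining 3, where chance gives about 5% of sets. For Slc17a6, mouse 15 (PTU+TH) had 3.23 CPM and the remaining mice of its group 1.44 to 1.60 CPM, a gap of 0.911 of the range of the 4 libraries. The summed GABAergic level of mouse 9 (PTU) was 2981 CPM and that of mice 10 to 12 was 2503 to 2574 CPM, a gap of 0.852 of the range. Without mouse 15 the log2 fold change of Slc17a6 was -0.27 (edgeR adjusted p = 0.939).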

How the results depend on the processing

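No paired analysis was possible because no mouse number occurs in both groups. The count of called members was 0 under all 14 other fits. The count of called genes, 368, was 748 with DESeq2 and 643 with Slc17a7 as a covariate, and between 182 (without PTU+TH mouse 15) and 499 (without PTU mouse 9) in fits that left out a library. It was also more than 1.5 times smaller without mice 12, 13, 14 and 16 (233, 238, 227 and 209). The fits that left out a library also hold fewer libraries, and the causes of these differences were not tested. Of 60 log2 fold changes of the 8 members and of Slc30a3 and Chn1 under other scalings, tools or filters, 5 changed sign and 0 changed the call. These were Neurod2 with library totals only (-0.0099) and with voom (-0.092), Neurod6 with library totals only (-0.026), and Cux2 with upper quartile scaling (0.0076) and voom (0.00198). When each library was left out, the log2 fold change ranged from -0.14 to 0.37 for Slc17a7, -0.27 to 0.69 for Slc17a6, -0.34 to 0.31 for Neurod2 and -0.19 to 0.38 for Neurod6. It ranged from -0.086 to 0.44 for Tbr1, -0.15 to 0.64 for Emx1 and -0.097 to 0.083 for Cux2, so the direction of these 7 rests on single libraries, while Fezf2 kept its sign (-0.96 to -0.20). Their adjusted p was 0.400 at the lowest. The difference in library totals ranged from -1.57 to 0.87 M counts (M, mega). The median log2 fold change over all genes shifted by -0.021 with library totals only, and less with the other scalings. Emx1, Slc17a6 and Fezf2 had as few as 16, 21 and 28 counts in a library, which limits their precision.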

Other observations

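Markers of neurons of neighbouring regions were also measured. Tcf7l2, a transcription factor gene of thalamic neurons, was at 2.04, 4.44, 4.01 and 1.36 CPM in mice 9 to 12 (PTU) and at 3.96, 1.86, 9.99 and 4.43 CPM in mice 13 to 16 (PTU+TH), and was highest in mouse 15. Lef1, which is also expressed in the thalamus, was at 1.42, 6.36, 1.43 and 0.39 CPM in the 4 PTU mice and at 3.04, 0.38, 4.95 and 2.43 CPM in PTU+TH. Mouse 10 was among the 2 highest for these genes, but for Ntng1 it was second lowest at 34.2 CPM, above mouse 9 at 23.5 CPM. Of the 4 thalamic genes, led by Ntng1 at 41.6 CPM, and the 5 striatal genes, led by Rgs9 at 77.4 CPM and Drd1 at 14.8 CPM, 0 were called by edgeR, DESeq2 or limma voom, and 1 of the 9, Ntng1, had an unadjusted edgeR p under 0.05. The striatal marker Ppp1r1b averaged 0.57 CPM, and its body is 24.6% free of other genes.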
